A study of Homo sapiens with 6 samples.

Results

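Glycosaminoglycan synthesis and sulfation enzymes are the Golgi and cytosolic proteins, with a few at the cell surface, that build and sulfate chondroitin, dermatan, heparan and keratan sulfate chains and hyaluronan. The 49 genes described here were chosen by symbol from a list of such enzymes, with earlier results of these data known. All 49 were among the 20289 genes of the deposited table. Their mRNA was measured by poly(A) RNA sequencing in Huh7, a line from a human liver carcinoma. The question was which genes act downstream of UBE2S, a ubiquitin-conjugating enzyme of the anaphase-promoting complex. The groups were 3 libraries of UBE2S knockout (KO) Huh7 cells and 3 libraries of wild-type (WT) Huh7 cells, with no other treatment in the labels. The labels do not say how the knockout was made or whether its libraries come from 1 clone.

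Chondroitin, dermatan and heparan sulfate are linear sugar chains attached to the core proteins of proteoglycans. A shared linker that starts with xylose is built first. The chain is then extended as chondroitin, from N-acetylgalactosamine and glucuronic acid, or as heparan, from N-acetylglucosamine and glucuronic acid, and sulfotransferases place sulfate groups along it. Hyaluronan differs in that it is made at the plasma membrane with no core protein and no sulfate. In liver, heparan sulfate at the cell surface binds lipoproteins and growth factors, and chondroitin sulfate and hyaluronan increase in scarred and tumour tissue.

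Library totals were 21840499 to 25840104 estimated counts in KO and 23300336 to 27910396 in WT. No library was a copy of another: a chi-square over genes, divided by its degrees of freedom, was 1.40 or more for every pair within a group. WT replicate 1 stood apart, at 8.41 and 10.9 against the other WT libraries, while the remaining pairs reached at most 1.80. The labels do not say that replicates were separate cultures. The p-values here weigh the difference between groups against the spread among these libraries, which may be technical variation only. UBE2S had 1046, 1062 and 1147 counts in the KO libraries, against 6332, 5129 and 6068 in the WT libraries (log2 fold change -2.29, SE 0.04, edgeR adjusted p = 1.6e-12). Summed over 10 hepatocyte markers the level was 26800 to 27400 CPM (counts scaled to a common library size) in KO and 30400 to 31000 CPM in WT, with 1 marker higher and 9 lower. Among 10 markers of stroma and fibroblasts, 4 rose and 2 fell, POSTN was at 0 in all libraries, and the sum was 26.9 to 28.7 CPM in KO and 146 to 162 CPM in WT. Most of that difference was COL1A2, at 0.338 CPM in KO and 139 CPM in WT. Endothelial markers summed to 2.55 to 3.25 CPM in KO and 6.36 to 7.68 CPM in WT (8 markers, 1 tested and lower, KDR at 0). Immune markers summed to 179 to 182 CPM in KO and 290 to 313 CPM in WT (8 markers, 3 tested and lower). LYZ made most of this sum, and CD3E, CD163 and MS4A1 were among those at 0. The 6 cholangiocyte markers summed to 296 to 301 CPM in KO and 330 to 358 CPM in WT, with 1 higher and 2 lower. Every library is from Huh7 cells, so these sums describe marker genes within a cell line and not numbers of other cell types. The part of these markers in the results that follow was not tested. Bulk samples do not show whether a level changed in all cells or in some.

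The enzymes moved in both directions. Of the 49 genes, 41 had enough counts to be tested, each of them in both groups, and 8 did not: XYLT1, UST, EXTL1, HS3ST2, SULF1, CHST1, CHST2 and CHST4, whose counts were 6 or fewer in every library. Genes were compared by edgeR's quasi-likelihood test with Benjamini-Hochberg adjustment over all 13265 tested genes, and a gene is called where its adjusted p is below 0.05. In KO cells 18 enzymes were higher and 9 lower, and 14 were not called. The 27 called are 65.9% of the 41, against 60.1% of all tested genes, so the share itself is near the background. Calls with an absolute log2 fold change of at least 0.5 numbered 14 (34.1%), against 18.9% of all tested genes. Of these, 8 were higher (9.11% of all tested genes) and 6 lower (9.83%). Because the enzymes were chosen with earlier results of these data known, their shares here and below may partly reflect that choice, which was not tested. At least 1 in absolute log2 fold change was reached by 4 enzymes, CHSY1, CHST3, CHST15 and HAS2, against 6.14% of all tested genes. The KO and WT libraries did not overlap in CPM at 28 of the 41 enzymes, against 65.8% of all tested genes. The median log2 fold change was 0.11 over the enzymes and 0.00 over all tested genes.

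**Figure D1:**
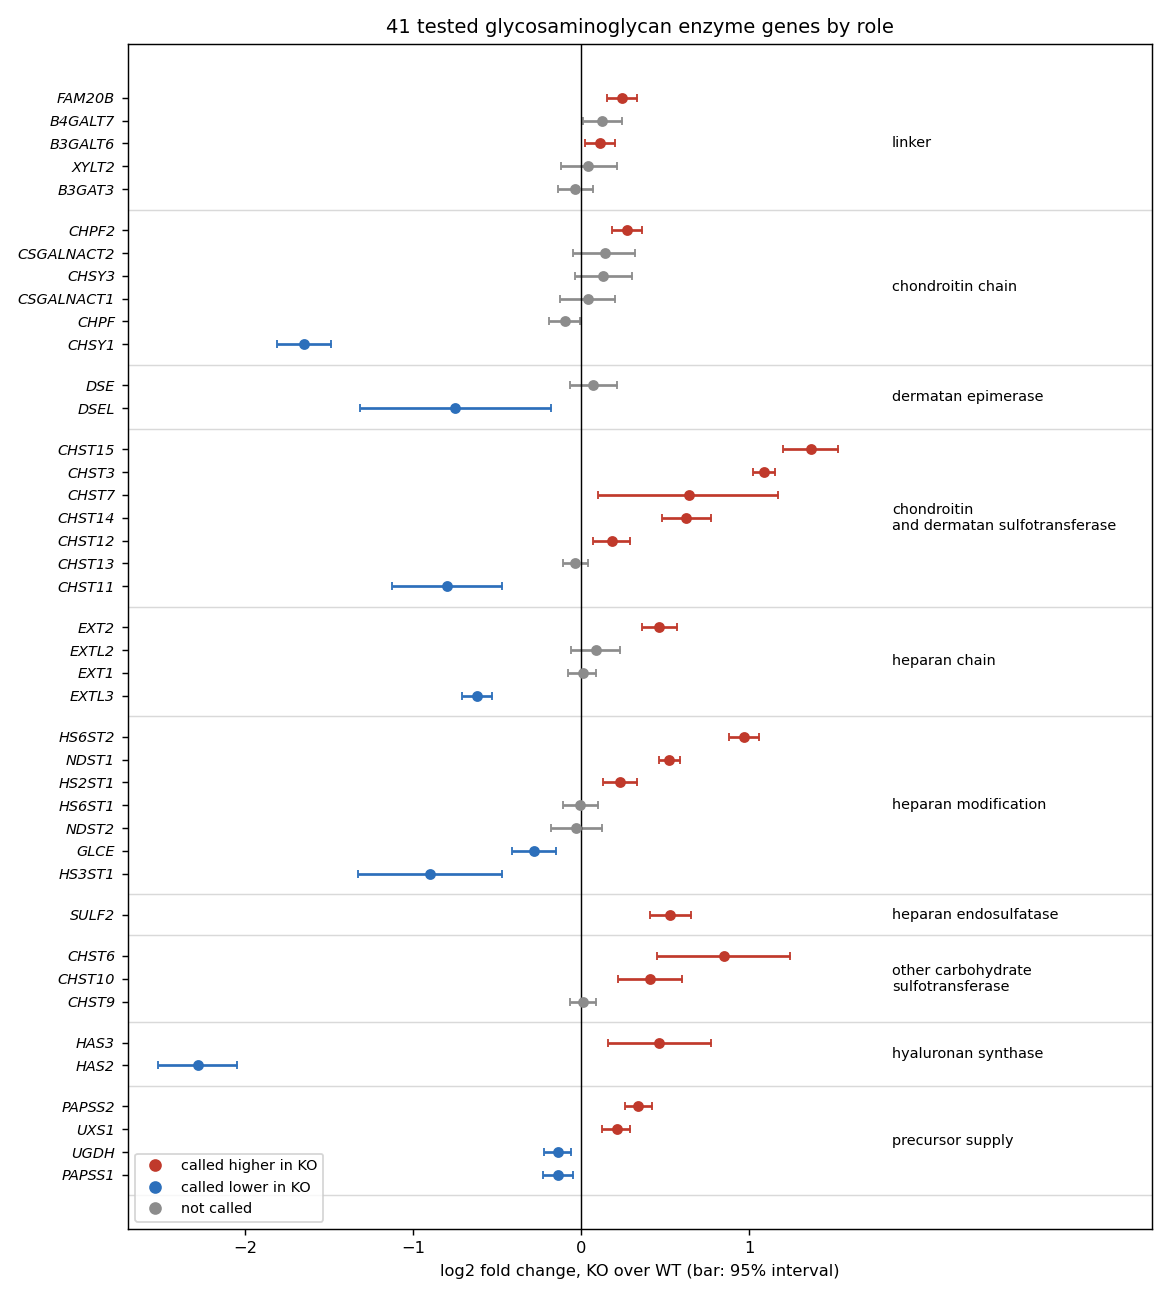
Log2 fold change of the 41 tested enzyme genes in KO over WT, grouped by role, with 95% intervals from the edgeR fit on 3 libraries per group; red is called higher, blue called lower and grey not called. The chondroitin and dermatan sulfotransferases run from -0.80 (CHST11) to 1.37 (CHST15) and the hyaluronan synthases from -2.28 (HAS2) to 0.46 (HAS3).

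Among the chondroitin and dermatan sulfotransferases, 5 of the 7 tested genes rose and 1 fell (85.7% called, against 60.1% of all tested genes, 29.4% higher and 30.7% lower). CHST3, the enzyme that puts sulfate on carbon 6 of N-acetylgalactosamine in chondroitin, had 275, 272 and 272 CPM in the KO libraries, against 128, 130 and 127 CPM in the WT libraries. The groups were far apart, with 6054 to 7044 counts in each KO library and 3033 to 3562 in each WT library. Its log2 fold change was 1.09 (SE 0.03, edgeR adjusted p = 2.2e-11), a fold of 2.12. CHST15 adds a sulfate at carbon 6 to units that already carry one at carbon 4, which gives the doubly sulfated chondroitin sulfate E. It had 23.0, 22.8 and 24.6 CPM in KO and 9.39, 9.86 and 8.10 CPM in WT. Every KO library was thus above every WT library, and the log2 fold change was 1.37 (SE 0.08, edgeR adjusted p = 1.4e-08).

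CHST14 places sulfate on carbon 4 in dermatan sulfate. It had 16.4, 17.4 and 17.9 CPM in KO libraries, against 11.6, 11.4 and 10.7 CPM in WT libraries (log2 fold change 0.62, SE 0.07, edgeR adjusted p = 4.6e-06). CHST7, a second chondroitin 6-O-sulfotransferase, was scarce, at 37, 39 and 62 counts in KO and 23, 30 and 44 counts in WT. In CPM its groups lay close together, 1.67 to 2.39 in KO and 0.85 to 1.57 in WT, and its log2 fold change was 0.64 (SE 0.25, edgeR adjusted p = 0.039). The CHST7 call was lost without KO replicate 3 (0.44, adjusted p = 0.20), without WT replicate 1 (0.42, adjusted p = 0.13) and without WT replicate 2 (0.66, adjusted p = 0.072), and DESeq2 did not call CHST7 (adjusted p = 0.11).

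The 4-O-sulfotransferases of chondroitin, CHST11, CHST12 and CHST13, differed among themselves. CHST11 had 40, 59 and 51 counts in KO libraries and 99, 81 and 108 counts in WT libraries. All of its KO values were below all of its WT values, at 2.10 ± 0.371 CPM in KO and 3.66 ± 0.189 CPM in WT (mean ± SD, n = 3 each; log2 fold change -0.80, SE 0.15, edgeR adjusted p = 6.0e-04). CHST12 was slightly higher (27.6 ± 0.516 CPM in KO and 24.4 ± 0.932 CPM in WT, log2 fold change 0.18, SE 0.05, edgeR adjusted p = 0.0092). DESeq2 did not call CHST12 (adjusted p = 0.058), and it was at -0.05 with the shift of its chromosome neighbours removed (edgeR adjusted p = 0.43). CHST13 was the most abundant of all 49 genes per kilobase of exon in both groups, at 60.8 CPM per kilobase in KO and 62.3 in WT. Its log2 fold change was -0.04 with a 95% interval of -0.11 to 0.04. UST, which sulfates carbon 2 of the uronic acid, had 3, 3 and 6 counts in KO and 1, 1 and 2 counts in WT, too few for the test.

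**Figure D2:**
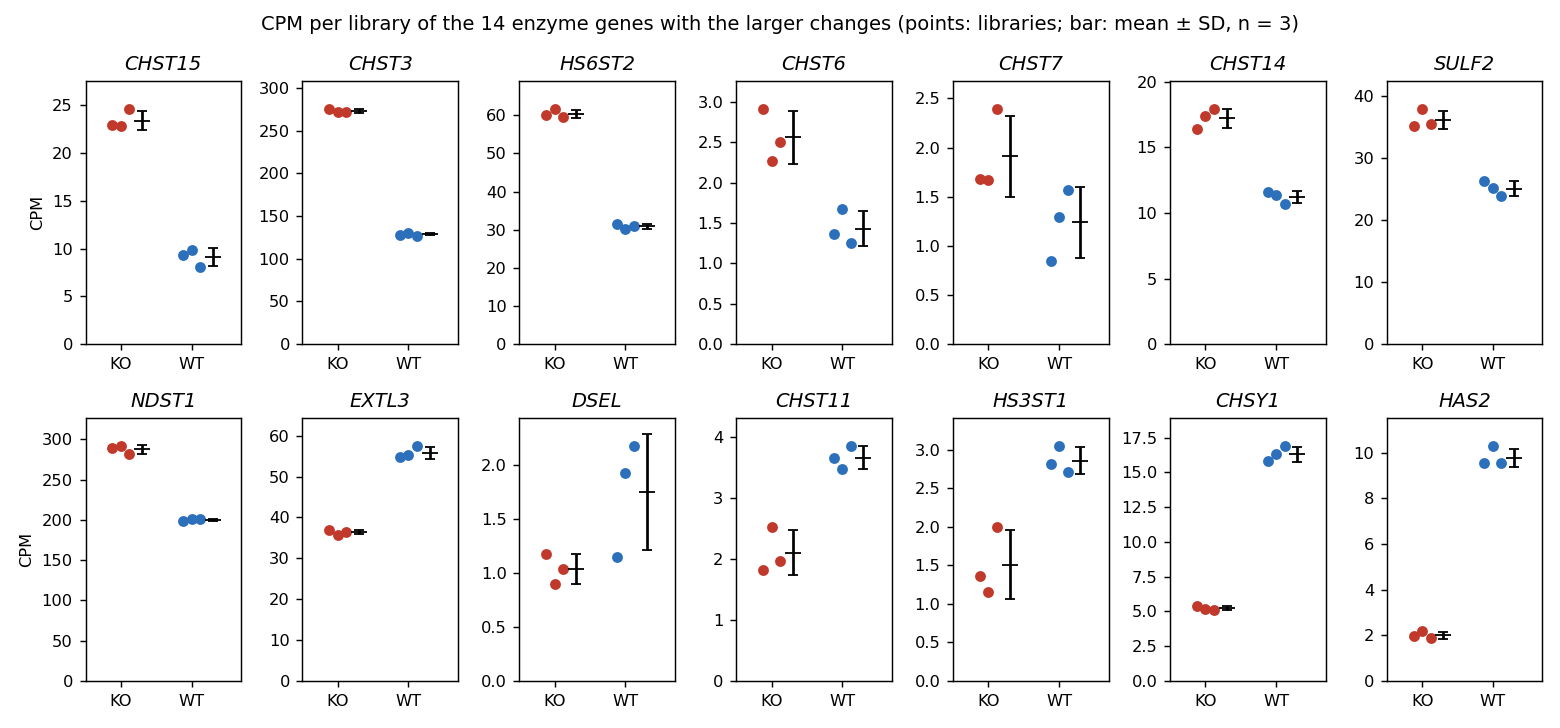
CPM in each of the 3 KO (red) and 3 WT (blue) libraries for the 14 enzyme genes called with an absolute log2 fold change of at least 0.5, from CHST15 to HAS2; black bars are mean ± SD and each panel has its own axis from 0. The groups are apart in every panel but that of DSEL, where the lowest WT library (1.15 CPM) lies inside the KO range.

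The sequence just before the transcription start is shown for CHST15 and CHST3, which rose, and CHSY1, which fell, as the genes with the largest changes among the chondroitin enzymes. Each stretch is the 250 bases upstream of a RefSeq start (GRCh38.p14), 5′ to 3′ on the gene's strand. It covers chr10:124093599-124093848 (minus strand) for CHST15, chr10:71964145-71964394 (plus strand) for the first of 3 listed starts of CHST3, and chr15:101252049-101252298 (minus strand) for CHSY1. Capitals mark 4 motifs searched on both strands, with no overlap between matches: the GC box GGGCGG, the TATA box TATAAA, the TEAD motif GGAATG and the AP-1 motif TGANTCA.
CHST15: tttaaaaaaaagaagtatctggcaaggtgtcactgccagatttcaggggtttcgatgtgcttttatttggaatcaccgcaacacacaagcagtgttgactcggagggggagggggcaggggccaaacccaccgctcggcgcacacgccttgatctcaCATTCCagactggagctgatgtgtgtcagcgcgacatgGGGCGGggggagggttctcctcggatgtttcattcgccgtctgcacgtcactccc
CHST3: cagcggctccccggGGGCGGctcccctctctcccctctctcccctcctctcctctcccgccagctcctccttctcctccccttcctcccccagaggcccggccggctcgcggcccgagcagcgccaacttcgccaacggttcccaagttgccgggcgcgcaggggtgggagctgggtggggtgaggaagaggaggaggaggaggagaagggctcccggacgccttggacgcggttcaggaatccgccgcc
CHSY1: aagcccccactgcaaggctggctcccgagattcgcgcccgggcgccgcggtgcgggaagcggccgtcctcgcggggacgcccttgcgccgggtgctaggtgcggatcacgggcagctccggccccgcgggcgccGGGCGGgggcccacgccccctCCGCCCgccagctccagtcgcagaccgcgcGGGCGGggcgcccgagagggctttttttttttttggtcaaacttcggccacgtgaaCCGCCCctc
The GC box matched once for CHST15, once for CHST3 and 4 times for CHSY1, and 42.6% of all 35116 RefSeq windows of this length hold it. A TEAD motif, read as CATTCC on this strand, was found for CHST15 and not for the others (11.9% of all windows). No TATA box (10.7% of windows) or AP-1 motif (6.57%) was found in the windows shown. Counts per gene do not show which start was used in these cells.

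Of the 6 enzymes that build the chondroitin chain, 1 rose, 1 fell and 4 were not called. The called share was 33.3%, against 60.1% of all tested genes. CHSY1, a synthase that lengthens the chondroitin chain, had 5.37, 5.17 and 5.09 CPM in the KO libraries, against 15.8, 16.3 and 16.9 CPM in the WT libraries. The counts were 118 to 132 in each KO library and 379 to 473 in each WT library, and the groups did not approach each other. The log2 fold change was -1.65 (SE 0.08, edgeR adjusted p = 2.5e-09), so the KO level was 0.319 of the WT level. CHSY3, its paralogue, was not called, at 10.8 ± 0.728 CPM in KO and 9.85 ± 0.476 CPM in WT (log2 fold change 0.13, 95% interval -0.04 to 0.30). CHPF2, a partner in polymerization, rose (0.27, SE 0.04, edgeR adjusted p = 8.6e-05). CHPF, the related polymerizing factor, had a log2 fold change of -0.10 with groups that did not overlap but an edgeR adjusted p of 0.060. CSGALNACT1 and CSGALNACT2, which start the chondroitin chain, had log2 fold changes of 0.04 (95% interval -0.13 to 0.20) and 0.14 (-0.05 to 0.32).

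The epimerases DSE and DSEL turn glucuronic into iduronic acid and so make dermatan from chondroitin. DSEL had 26, 21 and 27 counts in KO and 31, 45 and 61 counts in WT. Its groups overlapped in CPM, because WT replicate 1 (1.15 CPM) lay below KO replicate 1 (1.18 CPM). The log2 fold change of DSEL was -0.75 (SE 0.26, edgeR adjusted p = 0.025). That call was lost without KO replicate 2 (-0.66, adjusted p = 0.093), KO replicate 3 (-0.75, adjusted p = 0.067), WT replicate 2 (-0.68, adjusted p = 0.074) or WT replicate 3 (-0.55, adjusted p = 0.12), and DESeq2 did not call DSEL (adjusted p = 0.076). An annotated antisense gene shares 3305 exon bases with DSEL, and the labels do not say whether counting used strand. DSE was not called (0.07, 95% interval -0.07 to 0.21).

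Of the 5 tested linker enzymes, 2 rose and 3 were not called (40% called, against 60.1% of all tested genes). FAM20B, the kinase that phosphorylates the xylose, rose to 60.3 ± 2.12 CPM in KO, against 51.2 ± 1.34 CPM in WT (log2 fold change 0.24, SE 0.04, edgeR adjusted p = 3.1e-04). B3GALT6, which adds the second galactose, was called at 0.11 (SE 0.04, edgeR adjusted p = 0.038). It lost that call without KO replicate 1 (0.10, adjusted p = 0.12), KO replicate 3 (0.10, adjusted p = 0.12), WT replicate 2 (0.12, adjusted p = 0.0504) or WT replicate 3 (0.09, adjusted p = 0.11), and in DESeq2 (adjusted p = 0.16). XYLT2, which attaches the xylose, was at 0.04, B4GALT7, which adds the first galactose, at 0.12 (edgeR adjusted p = 0.058), and B3GAT3, which adds the glucuronic acid, at -0.04. Without WT replicate 1, XYLT2 (0.16, adjusted p = 0.01) and B4GALT7 (0.15, adjusted p = 0.023) were called higher. XYLT1, the paralogue of XYLT2, had at most 1 count in a library.

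Of the 7 tested enzymes that modify heparan sulfate, 3 rose and 2 fell (71.4% called, against 60.1% of all tested genes), and the median log2 fold change was -0.01. HS6ST2, which puts sulfate on carbon 6 of glucosamine, had 60.0, 61.6 and 59.6 CPM in KO libraries, against 31.5, 30.2 and 30.9 CPM in WT libraries. The groups were well separated, and the log2 fold change was 0.97 (SE 0.04, edgeR adjusted p = 1.5e-09), a fold of 1.95. HS6ST1, its paralogue, was at 39.8 ± 1.27 CPM in KO and 39.9 ± 1.58 CPM in WT, with a 95% interval of -0.11 to 0.10 on the log2 scale. NDST1, the N-deacetylase and N-sulfotransferase that acts first on the chain, had 290, 292 and 282 CPM in KO and 199, 201 and 201 CPM in WT. It rose, with no overlap between groups (log2 fold change 0.52, SE 0.03, edgeR adjusted p = 1.1e-08). For its paralogue NDST2 the value was -0.03 (95% interval -0.18 to 0.12). An annotated gene on the same strand shares 3857 exon bases with NDST2, so its count is less certain. SULF2, a secreted sulfatase that removes 6-O-sulfate from finished heparan chains, had 35.1, 37.8 and 35.4 CPM in KO and 26.2, 25.2 and 23.8 CPM in WT (log2 fold change 0.53, SE 0.05, edgeR adjusted p = 3.0e-06). SULF1, the other sulfatase of this kind, had only 1 count over all 6 libraries together, in WT replicate 2.

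HS3ST1 makes the rare 3-O-sulfate of the antithrombin-binding site. Its counts were 30, 27 and 52 in KO libraries and 76, 71 and 76 in WT libraries. All KO values lay below all WT values, although KO replicate 3 (2.0 CPM) was nearer to the lowest WT library (2.71 CPM), and the log2 fold change was -0.90 (SE 0.20, edgeR adjusted p = 0.0016). GLCE, the epimerase of heparan, fell to 23.0 ± 1.31 CPM in KO, against 27.9 ± 1.3 CPM in WT (log2 fold change -0.28, SE 0.06, edgeR adjusted p = 0.0011). HS2ST1, which sulfates the iduronic acid that GLCE makes, rose by 0.23 (SE 0.05, edgeR adjusted p = 0.0011), and shares 720 exon bases with an annotated gene on its strand. HS3ST2 was at 0 in all libraries.

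Of the enzymes that start and extend the heparan chain, EXTL3, which adds the first N-acetylglucosamine, had 37.0, 35.8 and 36.4 CPM in KO and 54.7, 55.2 and 57.5 CPM in WT. It fell, with the groups apart (log2 fold change -0.62, SE 0.04, edgeR adjusted p = 7.7e-08). EXT1 and EXT2 form the polymerase together. EXT2 rose to 48.8 ± 1.33 CPM in KO, against 35.4 ± 2.02 CPM in WT (log2 fold change 0.46, SE 0.05, edgeR adjusted p = 4.6e-06), while EXT1 was at 0.01 (95% interval -0.08 to 0.09). EXTL2, a related glycosyltransferase, was at 0.09 (95% interval -0.06 to 0.23), and EXTL1 had 4, 3 and 0 counts in KO and 2, 0 and 3 counts in WT.

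The hyaluronan synthases went in opposite directions. HAS2 had 43, 51 and 49 counts in the KO libraries, against 258, 239 and 268 in the WT libraries. That is 1.96, 2.18 and 1.89 CPM in KO and 9.54, 10.3 and 9.56 CPM in WT, so the lowest WT library was several times the highest KO library. The log2 fold change, -2.28 (SE 0.11, edgeR adjusted p = 3.6e-09), was the largest in absolute size among the 41 tested enzymes, and the KO level was 0.206 of the WT level. An antisense gene, HAS2-AS1, shares 201 exon bases with HAS2. HAS3 had 3.27, 3.25 and 2.89 CPM in KO and 2.33, 2.23 and 2.25 CPM in WT. It rose by 0.46 (SE 0.14, edgeR adjusted p = 0.012), with no overlap, although DESeq2 did not call it (adjusted p = 0.098). HAS3 shares 365 exon bases with CHTF8, a protein-coding gene on the other strand, and its estimates were not all whole numbers.

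Of the 6 sulfotransferases of keratan sulfate and other sugar chains, 3 could be tested and 2 rose. The called share of 66.7% was near the 60.1% of all tested genes. CHST6, which sulfates keratan sulfate in the cornea, had 64, 53 and 65 counts in KO and 37, 39 and 35 counts in WT (log2 fold change 0.85, SE 0.18, edgeR adjusted p = 0.0015). Its groups did not overlap, at 2.27 to 2.91 CPM in KO and 1.25 to 1.67 CPM in WT. An antisense gene shares 573 exon bases with CHST6. CHST10, which makes the HNK-1 epitope of neural glycans, rose by 0.41 (SE 0.09, edgeR adjusted p = 0.0015). CHST9, which sulfates N-acetylgalactosamine on hormone glycans, was abundant and level, at 68.8 ± 0.867 CPM in KO and 68.5 ± 1.90 CPM in WT (95% interval of the log2 fold change -0.07 to 0.09). CHST1 was at 0 in all libraries, CHST2 had 1 count and CHST4 at most 2 in a library.

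All 4 enzymes that supply precursors were called, at small size, where 60.1% of all tested genes were called. PAPSS2, one of a pair that makes the sulfate donor PAPS, rose to 83.4 ± 1.62 CPM in KO, against 65.9 ± 1.32 CPM in WT (log2 fold change 0.34, SE 0.04, edgeR adjusted p = 3.4e-06). With the shift of its chromosome neighbours removed, PAPSS2 was at -0.06 and not called (edgeR adjusted p = 0.17). PAPSS1, its partner, fell by 0.14 (SE 0.04, edgeR adjusted p = 0.0095), but DESeq2 did not call it (adjusted p = 0.056). UGDH makes UDP-glucuronic acid and UXS1 turns this into UDP-xylose. UGDH was lower at -0.14 (SE 0.04, edgeR adjusted p = 0.0050) and UXS1 higher at 0.21 (SE 0.04, edgeR adjusted p = 5.8e-04).

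Ratios between enzymes of a shared step do not depend on the scaling of libraries, and 11 were taken on CPM per kilobase of exon, after the values had been seen and with no test. In 9 of them the KO and WT libraries did not overlap, and in 4 the more abundant enzyme differed between the groups. The share of such ratios over other gene pairs was not computed, while 65.8% of all tested genes did not overlap singly. HAS2 over HAS3 was 0.754, 0.847 and 0.825 in KO libraries and 5.17, 5.80 and 5.37 in WT libraries. By these values HAS3 was the more abundant synthase in every KO library and HAS2 in every WT library. The order in KO rests on the HAS3 counts, which may include reads of CHTF8. CHSY1 over CHSY3 was 0.364, 0.315 and 0.35 in KO and 1.19, 1.17 and 1.16 in WT. HS6ST2 over HS6ST1 was 1.41, 1.41 and 1.45 in KO and 0.717, 0.699 and 0.758 in WT. For EXT1 over EXT2 the ratio was 0.863 ± 0.0196 in KO and 1.19 ± 0.0749 in WT (mean ± SD, n = 3 each). These orders rest on exon lengths from GENCODE release 29, which may not be those of the transcripts present. The shift between groups in a ratio of single genes does not rest on these lengths.

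**Figure D3:**
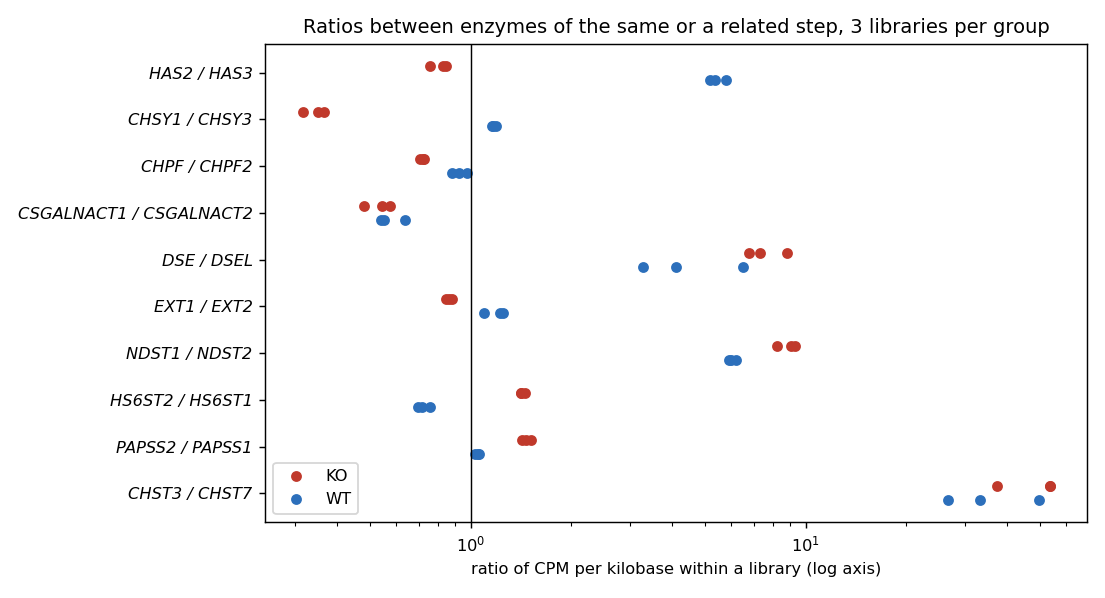
Ratio of CPM per kilobase between enzymes of the same or a related step, on a log axis, with 1 point per library (3 KO in red, 3 WT in blue); the line marks equal levels. HAS2 over HAS3, CHSY1 over CHSY3, EXT1 over EXT2 and HS6ST2 over HS6ST1 lie on opposite sides of the line in KO and WT.

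The ratio of CHST3 to the sum of the 4-O-sulfotransferases CHST11, CHST12 and CHST13 was 0.624, 0.623 and 0.622 in KO libraries, against 0.287, 0.279 and 0.293 in WT libraries. Exon lengths weight the genes of that sum, so the shift of this ratio between groups does depend on them. CHST13 stayed above CHST3 per kilobase in both groups (60.8 against 39.1 in KO, and 62.3 against 18.4 in WT). CHST3 had rank 2 of the 49 genes in KO and rank 4 in WT. PAPSS2 over PAPSS1 was 1.46 ± 0.0416 in KO and 1.05 ± 0.0137 in WT, and NDST1 over NDST2 was 8.85 ± 0.580 in KO and 6.02 ± 0.148 in WT. The NDST2 counts may include reads of the gene that shares 3857 exon bases with it, and its estimates were not all whole numbers. Ratios of CSGALNACT1 to CSGALNACT2 and of CHST3 to CHST7 overlapped between the groups. The remaining ratios were DSE over DSEL, at 6.80 to 8.82 in KO and 3.28 to 6.50 in WT, and CHPF over CHPF2, at 0.705 to 0.726 in KO and 0.881 to 0.978 in WT. The DSEL counts were low and may include reads of its antisense gene.

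Chromosome neighbours of some enzymes moved with them. For each gene, the median log2 fold change of the 25 tested genes on each side was taken, and it ranged from -0.34 at the 5th percentile to 0.28 at the 95th over all positioned genes. Of the 41 enzymes, 5 lie on chromosome 10, where the median over 511 tested genes was 0.31 and 60.7% were called higher, against 29.4% of all tested genes. The neighbours of CHST3 stood at 0.49, those of NDST2 at 0.43, those of PAPSS2 at 0.40, those of CHST15 at 0.39 and those of CSGALNACT2 at 0.26. With the neighbours' shift removed, CHST3 was at 0.59 (edgeR adjusted p = 4.5e-09) and CHST15 at 0.97 (edgeR adjusted p = 4.4e-07), both still called. PAPSS2 lost its call, and NDST2 was called lower (-0.46, edgeR adjusted p = 1.3e-04).

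Outside chromosome 10, EXTL3 lay among neighbours at -0.41 and kept its call at a smaller size (-0.21, edgeR adjusted p = 0.0011). CHST12, whose call was lost, had neighbours at 0.23, and DSE, with neighbours at 0.26, was called lower (-0.19, edgeR adjusted p = 0.022). GLCE fell further below its neighbours, at -0.57, and B3GALT6 and HS2ST1 stood further above theirs, at 0.40 and 0.37. CHPF2 was at 0.13 and still called. CHST7 lost its call, just past the threshold (0.61, edgeR adjusted p = 0.0506). The neighbours of HAS2 (0.00), CHSY1 (0.09), HS6ST2 (-0.03), NDST1 (0.04), CHST14 (-0.03), SULF2 (-0.01), CHST11 (-0.03) and HS3ST1 (-0.03) stood near 0, and those 8 genes kept their calls. What moves the neighbours was not tested.

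**Figure D4:**
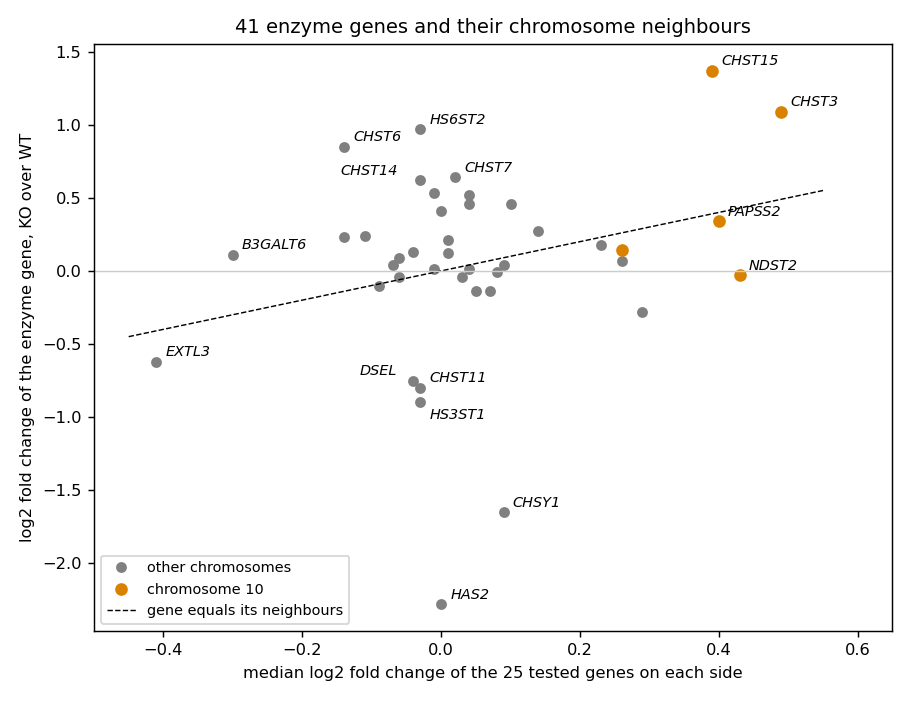
Log2 fold change of each of the 41 tested enzyme genes (KO over WT, vertical axis) against the median log2 fold change of the 25 tested genes on each side along the chromosome; chromosome 10 is in orange and the dashed line marks a gene equal to its neighbours. The 5 chromosome 10 genes lie at neighbour medians of 0.26 to 0.49, and HAS2 and CHSY1 lie far below neighbours that are near 0.

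Of 41 listed core proteins that carry these chains, 26 were tested, 16 rose and 5 fell. The called share was 80.8%, against 60.1% of all tested genes (29.4% higher and 30.7% lower), and the median log2 fold change was 0.28. This list and those that follow were also chosen with earlier results of these data known, so their shares carry the same limit. The largest increase was that of BGN, the small matrix proteoglycan biglycan, with 65, 81 and 81 counts in KO and 16, 10 and 8 counts in WT (log2 fold change 2.86, SE 0.23, edgeR adjusted p = 4.2e-07). GPC5, a glypican anchored to the membrane, rose by 1.5 (SE 0.22), BCAN, brevican, by 1.33 (SE 0.24) and SPOCK2, a testican, by 1.26 (SE 0.12). Neighbours of SPOCK2, on chromosome 10, stood at 0.49, and it was at 0.77 with their shift removed. The matrix heparan sulfate proteoglycans COL18A1 and HSPG2, perlecan, were chosen after their values were seen. COL18A1 rose to 492 ± 8.07 CPM in KO, against 300 ± 8.47 CPM in WT, and HSPG2 to 932 ± 20.8 CPM, against 700 ± 31.8 CPM. Protein-coding genes on the other strand share 1401 exon bases with COL18A1 and 2121 with HSPG2. The 5 that fell were VCAN, versican (-0.43, SE 0.04), TGFBR3, betaglycan (-0.33, SE 0.04), AGRN, agrin (-0.29, SE 0.04), AMBP, which encodes the chondroitin sulfate protein bikunin (-0.14, SE 0.03), and LUM, lumican, with 17 counts in KO and 78 in WT. With the shift of each gene's neighbours removed, AGRN was at 0.00 and not called, while TGFBR3 was at -0.20 and HSPG2 at 0.64, both still called. GPC3, the glypican used as a marker of liver carcinoma, was not called, at 704 ± 11.7 CPM in KO and 725 ± 16.8 CPM in WT.

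Further glycosaminoglycan enzymes outside the 49 included the other 3-O-sulfotransferases of heparan. Of 15 listed, 8 were tested, 3 rose and 4 fell (87.5% called, against 60.1% of all tested genes; median -0.19). HS3ST3B1 had 282, 297 and 379 counts in KO libraries, against 1057, 960 and 1142 in WT libraries (log2 fold change -1.59, SE 0.06, edgeR adjusted p = 6.0e-10). HS3ST3A1, which also lies on chromosome 17 and is closely alike in sequence, had 21, 29 and 36 counts in KO and 158, 128 and 144 counts in WT (-2.18, SE 0.15, edgeR adjusted p = 1.2e-07). Both estimates were fractional, so reads may have been shared between this pair and each value alone is less certain. HS3ST5 went the other way, with 71, 74 and 74 counts in KO and 32, 33 and 33 counts in WT (1.29, SE 0.17, edgeR adjusted p = 2.3e-05). B3GNT7, an enzyme of keratan sulfate, rose by 0.61 (SE 0.19), a call lost without KO replicate 3 (0.51, adjusted p = 0.069) and in DESeq2 (adjusted p = 0.066), and NDST3, chosen after its values were seen, had 80 counts in KO and 32 in WT. B4GALT1, a galactosyltransferase of many glycans, fell by 0.41 (SE 0.03) and B3GNT2, which extends lactosamine chains, by 0.24 (SE 0.06).

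Among enzymes that degrade the chains, 8 of 22 tested genes were higher and 6 lower (median 0.04), and the called share of 63.6% was near the 60.1% of all tested genes. NAGLU, a lysosomal enzyme of heparan breakdown, rose to 77.6 ± 2.86 CPM in KO, against 51.7 ± 4.98 CPM in WT (log2 fold change 0.59, SE 0.06), and HEXA, a hexosaminidase subunit, rose by 0.55 (SE 0.03). The hyaluronidase gene HYAL2 rose by 0.32 (SE 0.05). HPSE, heparanase, was called at 0.56 (SE 0.23, edgeR adjusted p = 0.0498), and that call was lost when any 1 of the 6 libraries was left out (0.39 to 0.67, adjusted p = 0.0509 to 0.19). IDS, a sulfatase of iduronic acid, fell by 0.44 (SE 0.09), ARSK by 0.41 (SE 0.08), ARSB, which removes 4-O-sulfate, by 0.39 (SE 0.04) and HGSNAT by 0.34 (SE 0.04). ARSK is also a lysosomal sulfatase, and HGSNAT an acetyltransferase of heparan breakdown. With the shift of their neighbours removed, HGSNAT was at -0.13 and HEXA at 0.30, both still called. Annotated genes on the same strand share 617 exon bases with HEXA, 1529 with IDS, 509 with HYAL2 and 379 with NAGLU. The counts of those genes are thus less certain.

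Genes for nucleotide sugars, sulfate entry and Golgi transport changed little, with log2 fold changes of -0.33 to 0.36 (median -0.02). Of 17 tested, 6 were higher and 5 lower, a called share of 64.7% that was near the 60.1% of all tested genes. The sulfate transporter gene SLC26A2 rose by 0.36 (SE 0.06) and its relatives SLC26A1 by 0.29 (SE 0.06) and SLC26A11 by 0.21 (SE 0.07). The SLC26A11 call was lost in DESeq2 (adjusted p = 0.067), without KO replicate 1 (0.18, adjusted p = 0.07) and without WT replicate 2 (0.18, adjusted p = 0.057). PGM3, an enzyme of UDP-N-acetylglucosamine synthesis, was higher at 0.21 (SE 0.03) but lower, at -0.09 (edgeR adjusted p = 0.041), with the shift of its neighbours removed. Lower genes were GNPNAT1 (-0.33, SE 0.04) and UAP1 (-0.24, SE 0.04), of the same synthesis, and the Golgi transporters SLC35D1 (-0.22, SE 0.05) and SLC35A3 (-0.21, SE 0.07). The groups overlapped in CPM for SLC35A3, and its call was lost without KO replicate 1 (-0.19, adjusted p = 0.079), KO replicate 3 (-0.18, adjusted p = 0.097) or WT replicate 3 (-0.12, adjusted p = 0.11). An annotated gene on the same strand shares 1160 exon bases with SLC35A3. Genes on the other strand share 1426 exon bases with GNPNAT1 and 1087 with PGM3. With the neighbours' shift removed, SLC26A1 (0.09), SLC26A11 (0.08), UAP1 (-0.04) and SLC35A3 (-0.04) were not called. Counts in this list moved with single libraries: 3 genes were higher without KO replicate 1 or without WT replicate 2.

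**Figure D5:**
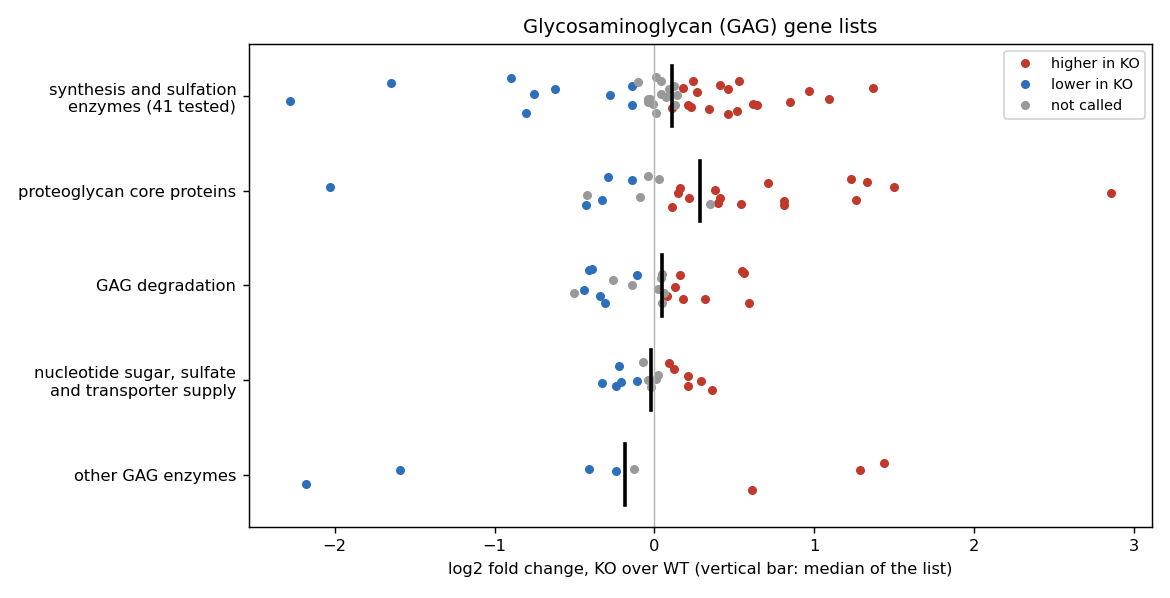
Log2 fold change (KO over WT) of every tested gene in the 5 lists, with 1 point per gene, red where called higher, blue where called lower and grey where not called; the vertical bar is the median of each list and points are spread vertically for legibility. The medians are 0.11 for synthesis and sulfation enzymes, 0.28 for core proteins, 0.04 for degradation, -0.02 for precursor and transporter supply and -0.19 for the other enzymes.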

How the data were processed

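Poly(A) RNA of 6 Huh7 libraries was sequenced, and groups and replicate numbers come from the sample titles. Estimated counts, not normalized, make up the single table deposited by the authors. The submitters' processing notes name StringTie 1.3.1, HISAT2, Bowtie2 2.2.8 and DESeq2 without saying what each did. Which program made the counts, with which annotation and build, is not stated. Estimated counts were rounded to whole numbers. Such programs can share reads between similar genes, and 5 of the 49 enzymes had estimates that were not whole. Genes were filtered by filterByExpr (minimum count 10), scaled by TMM and tested by edgeR 4.0.16 in R 4.3.3, with Benjamini-Hochberg adjustment over 13265 genes. Standard errors and 95% intervals come from that fit. CPM use the TMM-scaled library size. The test was tried on simulated data. DESeq2 1.42.0 and limma 3.58.1 served as alternatives, with other scalings and filters, a replicate block and each library left out.

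Positions and exon lengths (GRCh38) come from GENCODE release 29, to which 99.4% of the genes were matched by identifier, and 13209 tested genes had a position. For the shift of neighbours, the median of up to 25 tested genes on each side entered the fit as an offset. Promoter sequence is from RefSeq (GRCh38.p14), where 42 of the 49 symbols matched. Values in every library are given for enzymes called with an absolute log2 fold change of at least 0.5 and a mean of at least 1 CPM, and in each further list up to 4 called genes per direction with the largest change and a mean of at least 1 CPM are named. Members, lists and motifs were chosen with earlier results of these data known. No protein sequences were used here. The value of 1 immune marker is not reported here.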

Additional observations from a re-analysis of the deposited data

How the results depend on the processing

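Of the 41 tested enzymes, 30 kept the same status (called higher, called lower or not called) under all alternatives run for single genes. The sign of an enzyme that was not called could still change. RLE scaling, limma-voom and the filter of 1 CPM in 3 libraries changed none of the 41 calls, and no scaling moved the median of all genes by more than 0.01. Upper quartile and total count scaling each added B4GALT7 (0.14 in both). DESeq2 lost 6 calls, all below 0.8 in absolute log2 fold change: CHST7, CHST12, DSEL, B3GALT6, HAS3 and PAPSS1. B3GALT6 was also lost without a filter on low counts. Leaving out 1 library, which also lets more genes of low count past the filter, gave 16 to 19 enzymes higher and 8 to 9 lower, and over all genes 3437 to 4115 higher and 3675 to 4342 lower. It gave 14 to 16 core proteins higher and 6 to 7 lower, 6 to 9 degradation genes higher and 6 to 7 lower, 3 to 6 supply genes higher and 4 to 5 lower, and 2 to 3 other enzymes higher and 4 lower. Replicate numbers did not pair the libraries: deviations of same-numbered libraries correlated at 0.0241, -0.0369 and 0.0173. With the replicate block, 17 enzymes were higher and 9 lower, since B3GALT6 lost its call (adjusted p = 0.063).

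With a minimum absolute log2 fold change of 0.5, 8 enzymes were higher, as were 1209 genes in all, against 1304 lower. The counts were then 9 core proteins higher and 1 lower, 3 degradation genes higher and 0 lower, 0 supply genes in either direction, and 2 other enzymes lower. DESeq2 and removal of the neighbours' shift each left 3 supply genes higher. With that shift removed, CHST12 (-0.05), PAPSS2 (-0.06) and AGRN (0.00) lay near 0 and were not called, while DSE (-0.19) and PGM3 (-0.09) were called lower. CHST7 stayed at 0.61 but lost its call (edgeR adjusted p = 0.0506). The sign also changed for some genes that were not called in either fit, such as CSGALNACT2 (0.14 to -0.12). Library depth limits the genes near 50 counts per library: for DSEL and CHST7 the 95% intervals span -1.32 to -0.18 and 0.10 to 1.17.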
